A study of Mus musculus with 2 samples.

Results

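Portal vein and arterial endothelial cells of the mouse liver were picked out of 3′ single-cell RNA-seq data by the transcripts of the connexin gene Gja5 and of Fbln2, which encodes an elastic fibre protein. An endothelial barcode held at least 1500 unique molecular identifiers (UMIs, each marking 1 captured mRNA molecule) and 750 genes, at least 2 UMIs of Pecam1, Cdh5 and Ptprb together, and 0 of Ptprc, Adgre1, Cd79a and Dcn. Members were selected on these counts themselves, as endothelial barcodes with at least 2 UMIs of Gja5 and Fbln2 together and at most 2 of Rspo3, a gene of central vein endothelium. The rule gave 291 members among 8358 endothelial barcodes and 12755 barcodes in all, with 58 members in control and 233 in Maf LSEC-KO. Endothelial barcodes with 0 UMIs of Gja5, Fbln2 and Vwf were used as the reference, which is largely sinusoidal, and numbered 4096 in control and 2814 in Maf LSEC-KO. They were 95.1% and 69.4% of the endothelial barcodes, so the reference leaves out a larger part of the Maf LSEC-KO library. Comparisons with it rest on sets filtered to unlike extents.

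The study asked how the loss of the transcription factor c-Maf changes liver sinusoidal endothelial cells (LSECs). Livers of Maf LSEC-KO mice (Clec4g-iCre tg/wt with Maf fl/fl) and of controls were digested and cells carrying CD146, an endothelial surface protein, were sorted with magnetic beads. The controls, labelled WT, were littermates without the Cre transgene that carried floxed Maf on 1 or both alleles, so the floxed locus is shared by both groups. Each condition was sequenced as 1 library from a pool of 3 mice, and the age and sex of these mice are not given in the sources used here. The Cre is driven by the promoter of Clec4g, a lectin gene of LSECs, and the levels of Clec4g and Maf in large vessel barcodes are given below. The study itself set aside cells with Vwf UMIs as large vessel cells.

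With 1 library per condition there was no replicate check, no test between conditions was made, and every interval below is an exact 95% interval that covers counting error only. Levels are given as CPM, the UMIs of a gene summed over a set of barcodes and scaled to 1e+06 UMIs of those barcodes, with mitochondrial and ribosomal protein genes left out. Members held a median of 12368 UMIs in control, from 2000 to 36725, and of 15716 in Maf LSEC-KO, from 2228 to 103948. Their sums came to 665352 and 3816393 UMIs, so the control values carry the wider intervals. The 2 libraries shared 10 barcode sequences, 4 of them endothelial and none a member. B cells and neutrophils of the same libraries, 51 barcodes in control and 75 in Maf LSEC-KO with medians of 4281 and 4508 UMIs, were taken as a guide to free RNA. They were picked with at most 1 UMI of Pecam1, Cdh5 and Ptprb together, which limits endothelial RNA in them by construction. They are also shallower than members, so their CPM do not measure the free RNA in a member.

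In the liver, blood arrives by the portal vein and the hepatic artery, whose walls carry a continuous endothelium on a basement membrane, and it then passes through the fenestrated sinusoids. Arterial endothelium is kept by VEGF and Notch signalling and by SoxF factors such as Sox17, and its cells are coupled by the connexins encoded by Gja5 and Gja4. Portal vein endothelium shares part of this programme, so transcripts alone do not separate these vessels here. Sinusoidal cells are known for scavenger receptors and lectins, among them Stab2, Fcgr2b, Mrc1 and Clec4g.

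The members were 1.35% of the endothelial barcodes in control (1.02 to 1.74), and 5.75% of those in Maf LSEC-KO (5.05 to 6.51). These shares depend on the CD146 sort and on depth. With each barcode reduced by random draws to 2700 UMIs before selection, there were 32 members (0.781%, 0.535 to 1.10) and 96 members (2.28%, 1.85 to 2.78). Members with UMIs of both Gja5 and Fbln2 numbered 32 (0.743%) and 73 (1.80%). Under each of these choices the Maf LSEC-KO share was the higher, by 4.27 times with the rule, 2.92 times after thinning and 2.42 times with both genes required. The excess was lowest, at 2.13 times, among members with a low share of sinusoidal genes (52 and 104 members). Gja5 and Fbln2 had 0 UMIs in the control leukocytes, so that a share of up to 5.88% of barcodes cannot be seen, and 0 and 1 UMI in those of Maf LSEC-KO.

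Whether the members carried their label was read from Sdc1, Vegfc and Nrg1, markers that the rule does not use. Sdc1 encodes the proteoglycan syndecan-1, Vegfc a growth factor of lymphatic vessels, and Nrg1 the ligand neuregulin-1 of ErbB receptors. A UMI of at least 2 of these 3 genes was found in 51 of 58 control members (87.9%, 76.7 to 95.01) and in 120 of 233 Maf LSEC-KO members (51.5%, 44.9 to 58.1). Of the reference barcodes, 16 of 4096 (0.391%) and 79 of 2814 (2.81%) met the same condition. The reference leaves out barcodes with Vwf UMIs. Of those with Vwf, 0 Gja5 and Fbln2 and at most 2 Rspo3 UMIs, 7 of 56 in control (12.5%) and 134 of 711 in Maf LSEC-KO (18.8%) met it. Thinned to 2700 UMIs after selection, 66.7% of control and 24.2% of Maf LSEC-KO members still did. The label was thus met by most control members, while of the Maf LSEC-KO members 71 had a UMI of 1 of the 3 markers and 42 of none. In the reference, 277 control and 981 Maf LSEC-KO barcodes had a UMI of 1 of them. Vegfc was itself higher in the Maf LSEC-KO reference than in the control reference, at a log2 ratio of 2.26. It therefore set members apart less in Maf LSEC-KO.

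The markers followed the way in which a member had met the rule. In Maf LSEC-KO, 64 of the 73 members with both genes carried at least 2 of the 3 other markers (87.7%), against 29 of 49 with Gja5 alone (59.2%) and 27 of 111 with Fbln2 alone (24.3%). All 32 control members with both genes and all 5 with Gja5 alone met it, and 14 of the 21 with Fbln2 alone (66.7%). Barcodes just inside the threshold, with 2 UMIs of Gja5 and Fbln2, did so in 6 of 9 and 21 of 59 cases, and those just outside it, with 1 UMI, in 3 of 44 and 33 of 160. The 120 and 51 members with at least 2 of the 3 markers are called marker-positive here and were compared alongside all members, a choice made after their values were seen. It kept 51 of 58 control and 120 of 233 Maf LSEC-KO members, so it changed the Maf LSEC-KO set more.

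**Figure D1:**
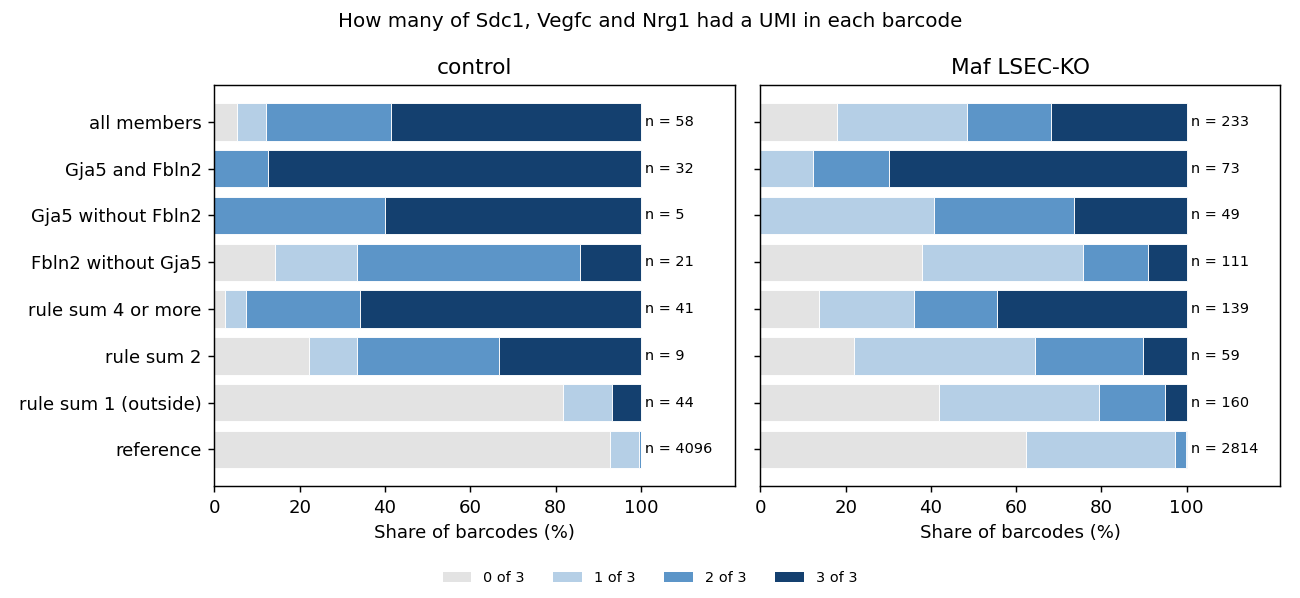
Share of barcodes (percent, horizontal axis) with a UMI of 0, 1, 2 or 3 of Sdc1, Vegfc and Nrg1, in control (left) and Maf LSEC-KO (right), by set of barcodes; rule sum is the number of Gja5 and Fbln2 UMIs. Members with both genes were mostly marker-positive in both libraries (100% and 87.7%), and those of Maf LSEC-KO with Fbln2 alone mostly were not (24.3%).

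Some Maf LSEC-KO members resembled other cells. In 7 of them UMIs of at least 2 genes of lymphatic vessels were found, against 0 in control, and none of the 7 was marker-positive. Ccl21a and Mmrn1, which mark lymphatic endothelium, were at 147 and 71.5 CPM in Maf LSEC-KO members and at 0 UMIs in control members. Summed biliary genes came to 4.51 CPM in control and 550.0 CPM in Maf LSEC-KO members, of which 5 barcodes held 98.8% of the UMIs, and to 7.53 CPM in the marker-positive members of Maf LSEC-KO. Hepatocyte genes summed to 364 and 347 CPM, with 128 CPM in marker-positive Maf LSEC-KO members, and the Kupffer cell list to 46.6 and 119 CPM. Smooth muscle and fibroblast genes without Cd34 were near 0, at 7.51 and 8.12 CPM, with Myh11, Cnn1 and Gli1 at 0 UMIs in both libraries. The part of these RNAs in the results was not tested beyond the values given without the barcodes concerned.

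Maf, the deleted gene (mm10, chromosome 8, 115682942 to 115707794, minus strand), was at 1214 CPM (1132 to 1301) in control members and at 3491 CPM (3471 to 3511) in the control reference. Control leukocytes held 76.6 CPM (43.8 to 124). In Maf LSEC-KO it was at 60.8 CPM (53.2 to 69.1) in members, 125 CPM (121 to 129) in the reference and 14.8 CPM (4.82 to 34.6) in leukocytes. Control members thus lay between the reference and leukocytes, and Maf LSEC-KO members far below control members, at a log2 ratio of -4.32 (-4.54 to -4.11). Which part of the gene the floxed allele removes is not given in the sources used here, so remaining UMIs cannot be read as intact transcript.

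Per barcode, at least 3 Maf UMIs were counted in 43 of 58 control members (74.1%) and in 3914 of 4096 control reference barcodes (95.6%). Of the Maf LSEC-KO members, 201 of 233 had 0 and 11 had 3 or more (4.72%), compared with 229 of 2814 reference barcodes (8.14%). Marker-positive Maf LSEC-KO members held 21 Maf UMIs in all, 11.3 CPM (6.99 to 17.3), an interval that overlaps that of leukocytes. The leukocytes held 5 Maf UMIs in 75 barcodes of lower depth, so the overlap does not place these members at the background. The other 113 members held 211 UMIs, 108 CPM (93.7 to 123), and 1 barcode alone held 66 UMIs, 28.4% of the Maf UMIs of Maf LSEC-KO members. Maf UMIs were therefore nearly gone from the barcodes that carried the portal and arterial markers most fully.

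Clec4g, whose promoter drives the Cre, was detected in members of both libraries. Control members held 1109 CPM (1031 to 1192) of Clec4g, Maf LSEC-KO members 955 CPM (925 to 987), and the reference 3041 and 1542 CPM. Leukocytes held 81.3 and 166 CPM. The same order, members between reference and leukocytes, held in control for Stab2, which encodes a scavenger receptor for hyaluronan, at 374, 1634 and 71.8 CPM. Over the 20 sinusoidal genes past 50 CPM, the control members held between 0.144 times (Clec1b) and 0.773 times (Enpp6) the level of the reference. The part of sinusoidal cells attached to or captured with the members in these values was not tested.

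The marker-positive and the other members of Maf LSEC-KO are set side by side as a description of 1 library. Of 4498 genes, 130 were at least 2-fold higher (2.89%) and 93 lower (2.07%) in the other members, and the lower ones include Sdc1, Vegfc and Nrg1, which made the division. The sinusoidal genes Lyve1, Maf, Dnase1l3, Oit3 and Clec1b were among the higher ones. Of 6 central vein genes tested, 4 were also higher (Wnt2, Kit, Ptgs1 and Gja1) and 1, Cdh13, lower, with a median log2 ratio of 1.35. The part of central vein cells among the other members was not tested. Lyve1, the hyaluronan receptor of sinusoidal and lymphatic endothelium, was at 48.4 CPM in marker-positive and 395 CPM in the other members, which include the 7 lymphatic-marked ones. Of 13 arterial genes, 7 were lower, among them Gja4 at 411 and 129 CPM and Jag1 at 225 and 48.5 CPM. Markers that the rule did not use thus went with further arterial genes across the members. Against the reference, the other members had 82 genes at least 2-fold higher (1.85%) and 8 lower (0.181%) of 4421. Of 5 central vein genes tested, Wnt2, Thbd and Gja1 were among the higher ones and 0 among the lower.

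**Figure D2:**
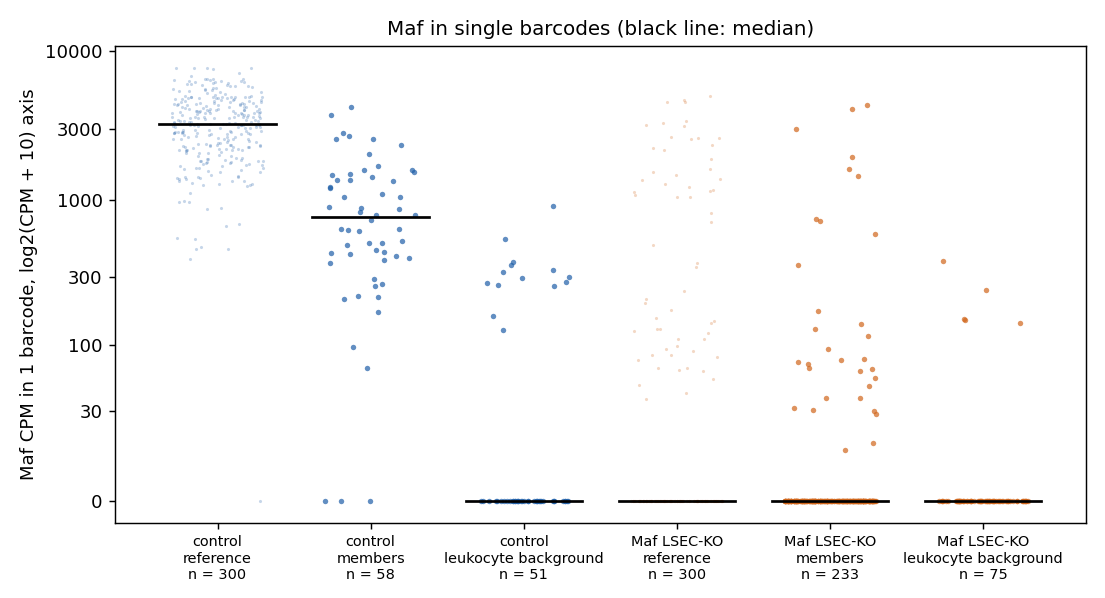
Maf in single barcodes as CPM on a log2(CPM + 10) axis, for reference (300 barcodes drawn at random from each library), members and leukocyte background, with the median as a black line. Control members lie below the control reference, and 201 of the 233 Maf LSEC-KO members sit at 0.

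The identity genes of the members were lower in Maf LSEC-KO members than in control members for most, and not for all, of the markers. Nrg1 (mm10, chromosome 8, 31814551 to 32884029, minus strand) stood at 827 CPM (759 to 899) in members of the control and 158 CPM (146 to 171) in those of Maf LSEC-KO, a log2 ratio of -2.38 (-2.55 to -2.22). Sdc1 (chromosome 12, 8771323 to 8793715, plus strand) was at 382 CPM (336 to 432) and 70.7 CPM (62.6 to 79.7), a log2 ratio of -2.43 (-2.68 to -2.18). In members with both rule genes the ratios were -1.55 and -1.74. Marker-positive members were picked for UMIs of these very genes, which raises their levels by construction, so their ratios of -1.46 (-1.63 to -1.29) and -1.60 (-1.85 to -1.34) are a description only. Vegfc was at 391 and 329 CPM, -0.25 (-0.44 to -0.05) in all members and 0.16 in those with both rule genes, with 0.33 (0.13 to 0.53) in marker-positive ones, which it helped to pick. Vwf, which encodes von Willebrand factor, was at 421 and 419 CPM, -0.01 (-0.19 to 0.18).

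The 2 genes of the rule can be described only, since they chose the barcodes. Gja5 (chromosome 3, 96904693 to 97077416, plus strand) was at 218 and 139 CPM in control and Maf LSEC-KO members. Fbln2 (chromosome 6, 91212455 to 91272540, plus strand) was at 332 CPM in Maf LSEC-KO members, a log2 ratio of -1.17 (-1.33 to -1.02) to control members. Vwf UMIs were present in 39 of 58 control members (67.2%) and 166 of 233 Maf LSEC-KO members (71.2%), so a filter on Vwf removes most of the members. Among all endothelial barcodes the share with Vwf was 3.46% in control and 26.7% in Maf LSEC-KO.

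**Figure D3:**
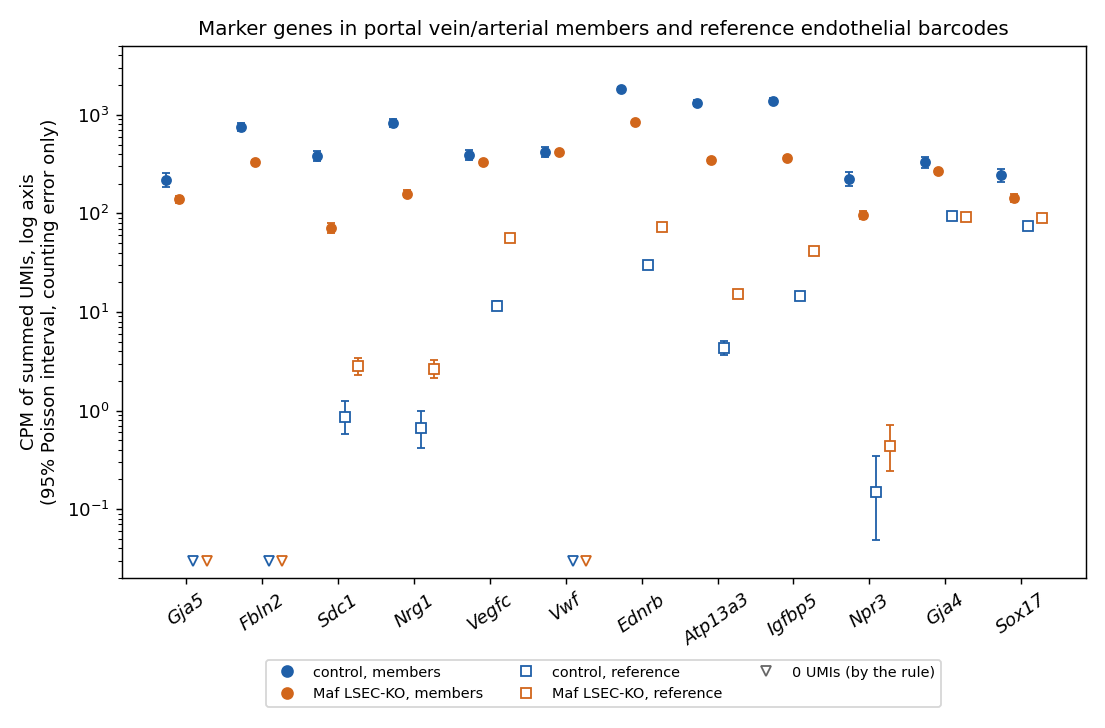
CPM of summed UMIs on a log axis for 12 genes in members (filled circles) and reference (open squares) of control (blue) and Maf LSEC-KO (orange), with exact Poisson intervals; triangles are genes at 0 UMIs in the reference by the rule. Sdc1, Nrg1, Ednrb, Atp13a3, Igfbp5 and Npr3 are lower in Maf LSEC-KO members and higher in the Maf LSEC-KO reference, while Vwf is level in members.

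Within each library, the genes that set members apart from the reference are a description, since the same UMIs picked the members. Of 4326 genes past 50 CPM in control, 260 were at least 2-fold higher in members (6.01%) and 247 at least 2-fold lower (5.71%). In Maf LSEC-KO the counts were 120 (2.73%) and 31 (0.706%) of 4392 genes, and 177 (3.98%) and 106 (2.38%) of 4451 genes with marker-positive members. Without the rule's genes and Vwf, 80 of the 257 higher genes of control (31.1%) were among the 117 of Maf LSEC-KO (68.4%), and 132 of the 257 (51.4%) were among the 174 of marker-positive members (75.9%). Fewer genes were thus past 2-fold between members and reference in the Maf LSEC-KO library. The summed UMIs, the share of marker-positive members and the part of the library in the reference differed between the libraries. These counts therefore do not measure a distance.

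The genes furthest above the reference in both libraries encoded matrix, receptors and membrane proteins. Col8a1, a short-chain collagen of vessel walls, was at 147 CPM in control members and 107 CPM in Maf LSEC-KO members, against 2 and 8 UMIs in the reference. Npr3, the clearance receptor for natriuretic peptides, was at 224 and 96.4 CPM, against 0.150 and 0.437 CPM. Ehd2, which binds caveolae, was at 158 and 88.0 CPM, against 0.360 and 4.72 CPM. Cyp1a1, a cytochrome P450 induced through the aryl hydrocarbon receptor, was at 69.1 and 23.1 CPM, against 0.0900 and 0.0582 CPM. In all 4 genes members stood above the reference of their own library and were lower in Maf LSEC-KO than in control, except that Col8a1 was at a log2 ratio of 0.26 (-0.06 to 0.60) in marker-positive members.

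Col8a1, Npr3 and Eln were found mainly in members with both rule genes. Col8a1 was at 249 CPM in the 32 control members with both genes and had 0 UMIs in the 21 with Fbln2 alone and the 5 with Gja5 alone. In Maf LSEC-KO it was at 313 CPM (282 to 347) in members with both genes, 20.6 CPM (14.6 to 28.1) with Fbln2 alone and 6.59 CPM (2.14 to 15.4) with Gja5 alone. Eln, which encodes elastin, followed the same order at 151 CPM (129 to 175), 32.2 CPM (24.6 to 41.3) and 7.91 CPM (2.90 to 17.2). Efnb2 and Dll4, ligands that mark arterial endothelium, were highest in Maf LSEC-KO members with Gja5 alone, at 516 CPM (466 to 569) and 389 CPM (346 to 436), against 412 and 237 CPM with both genes. Control members did not show this order. There Efnb2 was at 381 CPM with Fbln2 alone, 331 CPM with Gja5 alone and 284 CPM with both genes, and Dll4 at 215, 227 and 251 CPM. The members were therefore not uniform, and these subsets were compared as counts of barcodes of 1 library each.

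Among arterial genes, 11 of 22 listed passed 50 CPM in members, of which 3 were at least 2-fold higher in Maf LSEC-KO and 2 lower, against 4.93% and 2.96% of all 4463 genes tested. Over all of these genes 220 were higher and 132 lower, a split that turned to 146 and 160 when CPM was taken over all UMIs. The counts were 163 (3.71%) higher and 107 (2.43%) lower of 4399 genes in marker-positive members, 174 (3.94%) and 110 (2.49%) of 4415 in members with both rule genes, and 372 (8.23%) and 251 (5.56%) of 4518 in the reference. Efnb2 was at 320 and 337 CPM (log2 ratio 0.08, -0.13 to 0.29) and Dll4, a Notch ligand, at 237 and 231 CPM (-0.04, -0.29 to 0.21). Gja4 was at 331 and 266 CPM (-0.31, -0.52 to -0.09) and Sox17 at 243 and 144 CPM (-0.76, -1.02 to -0.50). In marker-positive members Gja4 turned to 0.26 (0.04 to 0.49) and Sox17 stood at -0.31 (-0.59 to -0.02). The 3 higher genes were Igfbp3, with 0 UMIs in control members and 91.7 CPM in those of Maf LSEC-KO, Depp1 (24.0 and 97.7 CPM, log2 ratio 2.02) and Clu (179 and 791 CPM), of which 1 barcode held 60.3% of the Maf LSEC-KO UMIs. The 2 lower genes were the kinase gene Bmx, 76.7 and 37.7 CPM, and Jag1, a Notch ligand, 437 and 134 CPM (-1.70, -1.91 to -1.49), or -0.99 (-1.22 to -0.77) in marker-positive members. In marker-positive members 5 of 13 arterial genes were at least 2-fold higher, Sema3g, Mgp, Igfbp3, Clu and Depp1, and 0 lower, with a median log2 ratio of 0.69 beside 0.08 over all genes tested. Arterial genes went with these markers within Maf LSEC-KO, where the choice left out the larger share of members, so these counts are a description only.

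Of the 7 Notch genes tested, Jag1 was the only one past 2-fold between the libraries, and none was in marker-positive members. The targets Hes1 and Nrarp were at 693 and 508 CPM and at 227 and 152 CPM in control and Maf LSEC-KO members, log2 ratios of -0.45 and -0.57. In the reference both were higher in Maf LSEC-KO, at 0.45 and 1.54. In control, Jag1, Hes1 and Nrarp were at least 2-fold higher in members than in the reference. In Maf LSEC-KO only Jag1 was in all members, and Jag1 and Nrarp were in marker-positive ones.

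Elastic fibre and vessel wall genes differed little between the libraries. Of 8 tested, 0 were past 2-fold in members, with a median log2 ratio of 0.09 beside 0.08 over all genes tested. Eln was at 58.6 CPM (41.7 to 80.1) and 63.4 CPM (55.7 to 71.9), and Fbn1, which encodes fibrillin-1, at 204 and 213 CPM (0.06, -0.20 to 0.33). Fbln5 was at 61.6 and 67.9 CPM and Mgp, an inhibitor of calcification, at 91.7 and 129 CPM (0.49, 0.10 to 0.90), with UMIs in 10.3% and 8.58% of members and a ratio of 1.22 (0.80 to 1.68) in marker-positive ones. Ltbp4, which anchors latent TGF-beta, was at 1443 and 966 CPM (-0.58, -0.68 to -0.47). Eln, Fbln5, Fbn1 and Mgp were at least 2-fold above the reference in members of both libraries.

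A group of genes characteristic of members was lower in Maf LSEC-KO members and higher in the Maf LSEC-KO reference. Igfbp5, which binds insulin-like growth factors, stood at 1393 CPM (1305 to 1486) in members of the control and 365 CPM (346 to 385) in those of Maf LSEC-KO, a log2 ratio of -1.93 (-2.05 to -1.81). In the reference it was at 14.5 and 41.3 CPM, a ratio of 1.51 (1.36 to 1.66). Atp13a3, a polyamine transporter, was at 1318 and 345 CPM in members (-1.93, -2.06 to -1.81) and at 4.35 and 15.1 CPM in the reference (1.79, 1.52 to 2.07). Ednrb, the endothelin B receptor, was at 1829 and 837 CPM in members (-1.13, -1.22 to -1.03) and at 29.9 and 73.0 CPM in the reference (1.29, 1.18 to 1.40). Its ligand gene Edn1, endothelin-1, was at 240 and 101 CPM in members (-1.25, -1.52 to -0.97) and at 1.83 and 31.2 CPM in the reference (4.09, 3.72 to 4.49). Members remained above the reference in each library for all 4 genes.

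These differences were smaller in better marked members. In marker-positive members the log2 ratios were -1.54 for Igfbp5, -1.21 for Atp13a3, -0.71 for Ednrb and -0.68 for Edn1, and with both rule genes required they were -1.48, -1.58, -0.66 and -1.05. The direction was thus the same in each set, and Ednrb did not reach 2-fold in either. Ace, which encodes angiotensin-converting enzyme, followed the same pattern at 75.1 and 33.5 CPM in members and 0.990 and 8.68 CPM in the reference. Of the 15 genes of flow sensing and vessel tone tested, Edn1, Ednrb, Ace and Thbd were lower and Adm higher in Maf LSEC-KO members, and 0 of 14 were past 2-fold in marker-positive members. Klf4 and Nos3, flow-responsive genes, were at 332 and 345 CPM and at 149 and 159 CPM in all members.

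Other genes of members were within 2-fold between the libraries in all members, while they were far higher in the Maf LSEC-KO reference. Thsd7a was at 113 and 140 CPM in members (0.31, -0.04 to 0.68) and at 0.420 and 26.5 CPM in the reference (5.98, 5.22 to 6.86). Cavin3, a caveolar coat protein, was at 177 and 233 CPM in members (0.39, 0.11 to 0.68) and at 1.17 and 55.4 CPM in the reference (5.56, 5.11 to 6.06). Cd200, an inhibitory ligand for myeloid cells, was at 102 and 142 CPM in members and at 0.150 and 9.09 CPM in the reference, and Plat, tissue plasminogen activator, at 102 and 71.8 CPM and at 0.510 and 9.96 CPM. In marker-positive members Thsd7a stood at 0.92 (0.55 to 1.30), Cavin3 at 0.74 (0.45 to 1.05) and Cd200 at 1.05 (0.67 to 1.46), and Plat at 0.06 (-0.35 to 0.48). With both rule genes required, Thsd7a stood at 0.93, and with barcodes thinned before the rule was applied Cavin3 stood at -0.033. The difference between the ratios of members and reference was not tested. In leukocytes Thsd7a had 0 UMIs, and Cd200 was at 33.5 and 23.7 CPM.

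**Figure D4:**
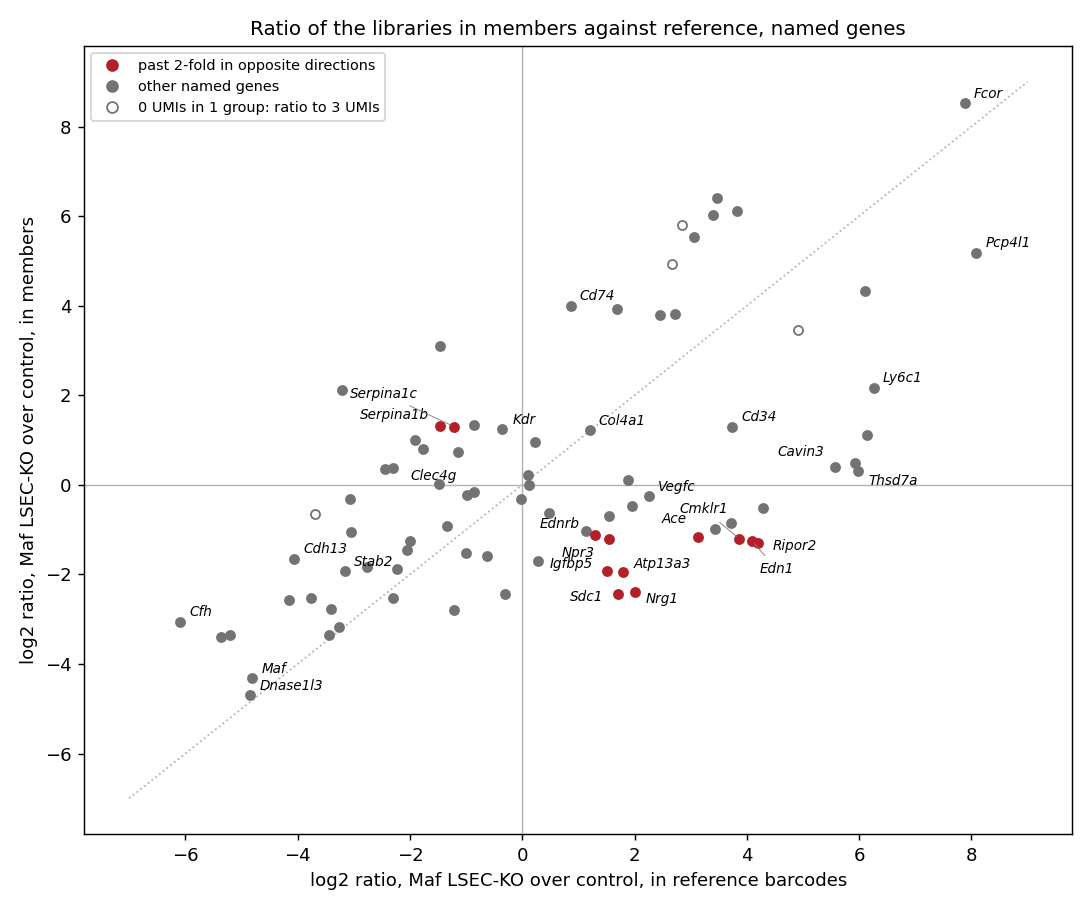
Log2 ratio between the Maf LSEC-KO and control libraries in reference barcodes (horizontal) and in members (vertical) for named genes; the dotted line marks equal ratios and red marks the 12 genes past 2-fold in opposite directions. Nrg1, Sdc1, Igfbp5, Atp13a3 and Ednrb lie at the lower right, Maf and Dnase1l3 at the lower left near the line, and Cd34 and Ly6c1 at the right with smaller ratios in members.

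Capillary genes of the study were higher in Maf LSEC-KO members too, by less than in the reference. The list holds genes that the study named from these samples, so its direction is not independent evidence. Of 10 tested in members, 5 were at least 2-fold higher and 1, Igfbp5, lower, with a median log2 ratio of 0.94, and of 10 in the reference 9 were higher, with a median of 2.41. Cd34, a sialomucin of capillary and large vessel endothelium, was at 155 and 381 CPM in members (1.30, 1.01 to 1.60) and at 28.6 and 382 CPM in the reference (3.74, 3.64 to 3.83). Ly6c1 was at 177 and 798 CPM in members (2.17, 1.90 to 2.45) and at 7.74 and 592 CPM in the reference. Pdgfb was at 75.1 and 123 CPM in members and at 13.8 and 136 CPM in the reference. In control, members stood above the reference for all 3 genes, and in Maf LSEC-KO Cd34 and Pdgfb did not. Another list, of large vessel and continuous endothelium, had a median log2 ratio of 0.055 in members, beside 0.078 over all genes tested. Of its 15 genes tested, Cd34, Ly6c1 and Emcn were at least 2-fold higher and Cldn5 lower. Its median was 0.24 in marker-positive members and 0.75 in the reference, where 5 of 14 were higher and 1 lower.

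Basement membrane collagen genes were higher in Maf LSEC-KO members by about as much as in the reference. Col4a1 was at 739 and 1725 CPM in members (1.22, 1.09 to 1.36), with 1.20 in the reference, and Col4a2 at 346 and 727 CPM (1.07, 0.88 to 1.27). In the same list Ntn4, a netrin of basement membranes, was at 1229 and 429 CPM (-1.52, -1.64 to -1.40), and 8 of the 11 genes tested were within 2-fold. Junction gene Cldn5 was lower in members, at 618 and 302 CPM (-1.03, -1.20 to -0.87), and in the reference.

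Sinusoidal genes, already low in control members, were lower again in Maf LSEC-KO members. Of 17 tested, 5 were at least 2-fold lower and 1 higher, with a median log2 ratio of -0.66, whereas 14 of 20 were lower in the reference, with a median of -1.45. The 5 were Maf, the DNase gene Dnase1l3 (1039 and 40.1 CPM), Enpp6, the Fc receptor gene Fcgr2b (601 and 88.6 CPM) and Stab2 (374 and 98.3 CPM). Kdr, the main VEGF receptor, was the higher one, at 885 and 2098 CPM (1.24, 1.12 to 1.37), and in the reference it was at 3447 and 2675 CPM (-0.37, -0.38 to -0.35). The difference in Kdr between members and reference was 3.89-fold in control and 1.28-fold in Maf LSEC-KO. With both rule genes required, 5 of 17 sinusoidal genes were lower and Oit3 and Kdr higher, with a median of -0.49. Stab2 then stood at -0.93, with 218 and 114 CPM. In marker-positive members 7 of 17 were lower and 1 higher, with a median of -0.80. Control members with Fbln2 alone held 672 CPM of Stab2 and 2031 CPM of Maf, against 218 and 805 CPM with both genes. Gata4, a transcription factor of LSECs, was at 177 and 188 CPM in all members.

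Of 24 endothelial transcription factor genes tested, Maf was the only one at least 2-fold lower in Maf LSEC-KO members and Sox7 the only one higher, at 31.6 and 80.7 CPM (1.35, 0.72 to 2.07). Mecom, a zinc finger factor of arterial endothelium, was at 684 and 412 CPM in members and at 69.9 and 132 CPM in the reference. It stood at least 2-fold above the reference in both libraries.

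**Figure D5:**
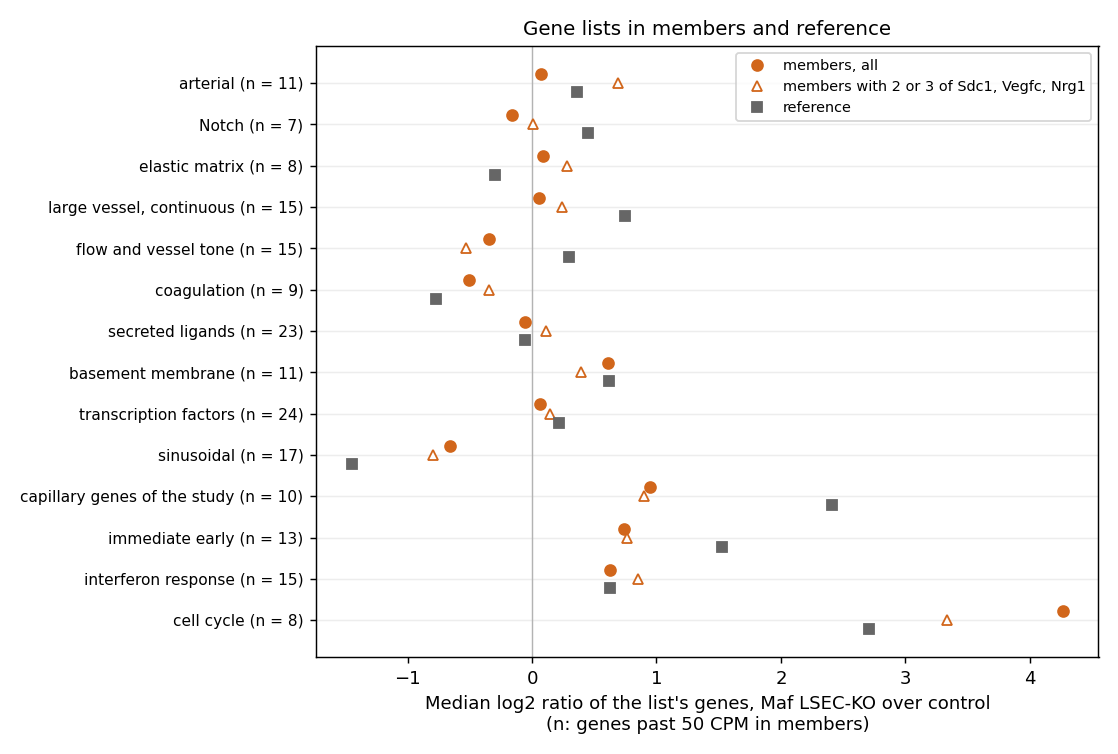
Median log2 ratio between the Maf LSEC-KO and control libraries over the genes of 14 lists (horizontal axis) in all members (filled circles), marker-positive members (open triangles) and reference (grey squares), with the number of genes tested in members. Capillary genes stand at 0.94 in members and 2.41 in the reference, sinusoidal genes at -0.66 and -1.45.

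Among secreted factors, 5 of 23 genes were at least 2-fold higher and 4 lower in Maf LSEC-KO members, against 4.93% and 2.96% of all 4463 genes tested. In marker-positive members 5 of 22 were higher and 3 lower, and with both rule genes required 6 of 23 and 3. Cxcl12, a chemokine, had 0 UMIs in control members and 64.5 CPM in Maf LSEC-KO members, in 26 of 233 barcodes, of which 1 held 29.3% of the UMIs. It was at least 14.3-fold higher, counted against 3 UMIs in the control members. Cxcl12 was also among the higher genes with both rule genes required, and not in marker-positive members. Within Maf LSEC-KO it was at least 2-fold higher in the other members than in marker-positive ones. Igfbp3 had 0 UMIs in control members and 91.7 CPM in Maf LSEC-KO, in 33 barcodes, at least 20.3-fold higher on the same count. Esm1, a marker of VEGF-stimulated tip cells, rested on 1 UMI in control members and was at 70.0 CPM in Maf LSEC-KO. Inhbb and Il33 were lower, at 75.1 and 35.4 CPM and at 82.7 and 24.6 CPM.

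Among the 12 genes with the highest ratios of Maf LSEC-KO to control in members were Fcor, Pcp4l1, Dkk2, Cd74 and several cell cycle genes. Fcor had 1 UMI in control members and 553 CPM in those of Maf LSEC-KO, and Pcp4l1 had 10 UMIs and 546 CPM (5.18, 4.30 to 6.25). In the reference they were at 3.99 and 940 CPM and at 2.28 and 619 CPM, and in leukocytes of Maf LSEC-KO Fcor was at 199 CPM. Fcor (mm10, chromosome 8, 3671188 to 3672362, minus strand) lies close to Clec4g (chromosome 8, 3707064 to 3720651, minus strand). The promoter of Clec4g drives the Cre transgene, which only the Maf LSEC-KO mice carry. The part of the transgene in the Fcor counts was not tested. Dkk2, a Wnt antagonist, was at 3.01 and 60.0 CPM in members, with 2 UMIs in control members, and at 1 UMI and 2.07 CPM in the reference. Cd74, of antigen presentation, was at 13.5 and 217 CPM in members and at 13.5 and 24.5 CPM in the reference, and 84.4% of its UMIs in Maf LSEC-KO members came from 1 barcode.

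Cell cycle genes were detected in the Maf LSEC-KO members. At least 2 UMIs of Mki67 and Top2a together were found in 1 of 58 control members (1.72%) and 42 of 233 Maf LSEC-KO members (18.0%), and in 2.12% and 21.1% of the reference. The share was 12.5% in marker-positive Maf LSEC-KO members and 23.9% in the others. Mki67 was at 3.01 and 279 CPM in members, and it was at 126 CPM in marker-positive and 423 CPM in the other members of Maf LSEC-KO. All 8 cell cycle genes tested were at least 2-fold higher in Maf LSEC-KO members, with a median log2 ratio of 4.27, and 4 of 6 were in marker-positive members.

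Immediate early genes, which are known to respond to tissue digestion, were also higher in Maf LSEC-KO. Of 13 tested, 4 were at least 2-fold higher in Maf LSEC-KO members and 11 in the reference, and 2 of 15 interferon-response genes were higher in members, with 10 of 16 in members with both rule genes. Jun was at 464 and 1114 CPM in members. The part of dissociation in the differences above was not tested, and with 1 library per condition it cannot be told apart from the genotype.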

How the data were processed

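Pooled hepatic endothelial cells of 3 mice per genotype were loaded on a 10x Chromium 3′ v3.1 chip, 1 library per genotype. The deposited values are whole-number UMI counts per gene and barcode, made by the authors with Cell Ranger 6.0.2 against mm10, and every deposited barcode held at least 500 UMIs. The study went on with Seurat 5.0.1, empty-droplet subtraction and doublet calls, none of which were applied here. No column of any other sample was used.

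Barcodes were selected by the rule given above with Python 3.11.15, numpy 2.4.6, scipy 1.17.1 and pandas 2.3.3, and figures were drawn with matplotlib 3.10.9. Counts were summed per library and set of barcodes and divided by the same barcodes' UMIs, leaving out 104 mitochondrial and ribosomal protein genes. A gene entered a comparison at 50 CPM in either group and was counted from a 2-fold ratio. Intervals are exact Poisson for levels, conditional binomial for ratios and Clopper-Pearson for shares. Against 0 UMIs, a ratio was taken to 3 UMIs. With 1 library per genotype no model was fitted and no p-value was computed. The calculations were tested on simulated data.

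Genes were named if they were markers, Maf or Clec4g, among the 15 highest or 10 lowest between members and reference, among the 12 highest or lowest between libraries, among the 8 per direction whose ratio differed most between members and reference, or examples of the lists. The members, the gene lists and the rule were chosen with earlier results of these data known. Doublets were not called in the rule, since the automatic limit of Scrublet (scanpy 1.11.5) called 0 barcodes in both libraries. As an alternative the 257 and 402 barcodes with the highest scores were left out, and with them 1 and 9 members. Positions are from GENCODE M21.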

Additional observations from a re-analysis of the deposited data

Results flagged for a closer look

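Among the named genes and those of the gene lists, 12 with at least 50 CPM in members had ratios past 2-fold in opposite directions in members and reference. These are log2 ratios of the Maf LSEC-KO to the control library. Other genes were not searched, so the count is not a share of all genes tested. Some of the 12, such as Ripor2, Edn1 and Cmklr1, were named because their ratios differed most between members and reference. The difference between these ratios was not tested, since each genotype is 1 library.

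In 10 genes the ratio was below 0 in members and above 0 in the reference. Nrg1 stood at -2.38 and 2.01, Sdc1 at -2.43 and 1.70, Igfbp5 at -1.93 and 1.51, and Atp13a3 at -1.93 and 1.79. Edn1 stood at -1.25 and 4.09, Ednrb at -1.13 and 1.29, Npr3 at -1.22 and 1.54, and Ace at -1.16 and 3.13. Cmklr1, the chemerin receptor, stood at -1.20 and 3.86, with 116 and 50.3 CPM in members. Ripor2 stood at -1.29 and 4.20, with 143 and 58.4 CPM in members. In members with both rule genes Nrg1 and Sdc1 stood at -1.55 and -1.74, and in marker-positive members, which were picked for these 2 genes, at -1.46 and -1.60. In marker-positive members the ratios of Igfbp5 and Atp13a3 were -1.54 and -1.21, while those of Npr3, Cmklr1, Ripor2, Edn1, Ednrb and Ace were between -0.88 and -0.42. The reference levels of Npr3, Nrg1 and Sdc1 were under 3 CPM in both libraries, and whether they stem from free RNA was not tested.

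The hepatocyte genes Serpina1b and Serpina1c went the other way, at 1.31 and 1.30 in members and -1.47 and -1.22 in the reference. In Maf LSEC-KO members 1 barcode held 89.0% of the Serpina1b and 88.6% of the Serpina1c UMIs, and in marker-positive members the ratios were -1.62 and -1.30.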

How the results depend on the processing

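Of 166 values of counts and of Maf under other choices, 117 stayed within the margin set for them and 49 did not, and of 486 values of named genes 332 stayed, 142 moved and 12 changed sign. Causes were not tested except where a choice itself leaves fewer barcodes or genes. Members, 58 in control and 233 in Maf LSEC-KO, came to 139 in Maf LSEC-KO with at least 4 UMIs of Gja5 and Fbln2, 32 and 73 with a UMI of each, 104 in Maf LSEC-KO with a low share of sinusoidal genes, 34 and 105 with at most 1 stellate, fibroblast or macrophage gene, 120 in Maf LSEC-KO with at least 2 of Sdc1, Vegfc and Nrg1, 19 and 67 with 0 Vwf UMIs, and 32 and 96 after thinning.

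The Maf ratio of -4.32 became -3.83 with at least 4 UMIs, -3.72 with a UMI of each gene, -4.08 without high doublet scores, -7.09 with a low sinusoidal share, -6.69 in marker-positive members, -4.66 without lymphatic-marked and -3.86 without cycling members, -2.96 with 0 Vwf UMIs and -3.54 as a mean over cells. It stayed below 0 under each of them. The Vegfc ratio of -0.25 turned to 0.16 with a UMI of each gene, 0.18 with a low sinusoidal share, 0.33 in marker-positive members, 0.12 without cycling members and 0.10 as a mean over cells. Vegfc is 1 of the genes that pick marker-positive members. Gja4, at -0.31, turned to 0.077, 0.086 and 0.26 under the first 3 of these and to 0.21 after thinning. Clec4g, at -0.22, turned to 0.11 with a UMI of each gene, Cavin3, at 0.39, to -0.033 after thinning, and Mki67, at 6.53, to -0.75 without cycling members. Cycling members were picked by their Mki67 and Top2a UMIs, so the fall of Mki67 follows by construction.

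The 220 genes higher in Maf LSEC-KO members came to 137 without cycling members, 627 with 0 Vwf UMIs, 650 after thinning, 146 with CPM over all UMIs, and 601 and 97 at 20 and 100 CPM. The 132 lower genes came to 397 with 0 Vwf UMIs, 593 after thinning and 259 at 20 CPM. Above the reference in control stood 260 genes, and 713 after thinning, 413 at 20 and 171 at 100 CPM. Below it stood 247, and 372 with a UMI of each gene, 615 after thinning and 425 at 20 CPM. Above the reference in Maf LSEC-KO stood 120 genes, and 197 with a UMI of each gene, 246 with a low sinusoidal share, 285 after thinning, 213 at 20 and 63 at 100 CPM. Below it stood 31, and 147 with a UMI of each gene, 148 with a low sinusoidal share, 106 in marker-positive members, 118 without cycling members, 7 with 0 Vwf UMIs, 244 after thinning, 61 as a mean over cells, and 52 and 17 at 20 and 100 CPM. After thinning a member holds 2700 UMIs, so 50 CPM rests on few UMIs. The choices on marker-positive, lymphatic-marked, cycling and Vwf-free members were made after seeing the data.

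No paired analysis was possible because each genotype is 1 library, and leaving out a replicate was not possible for the same reason.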
